A study of Homo sapiens with 18 samples.

Results

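Genes that restrain the growth kinase mTORC1 and genes of the autophagy machinery were followed in human kidney-derived cells exposed to zinc or cadmium, with and without the kinases LATS1 and LATS2. The members are 10 genes: DDIT4, SESN1, SESN2, SESN3, DEPP1, SQSTM1, GABARAPL1, MAP1LC3B, ULK1 and WIPI1. They were selected by name for these roles with earlier results of the same data known, and the large fall of DEPP1 in zinc-treated knockout cells was among those results. That change of DEPP1 is therefore given as a description without a test, and nothing is read from it. Other DEPP1 values that use the knockout zinc or water libraries are treated the same way, and counts of calls and medians in those comparisons are over the 9 other members. The 10 genes are among 58336 gene IDs in the count table, of which 19393 passed the filter on low counts and were tested, all 10 members included.

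mTORC1 is a kinase complex at the lysosome that promotes protein synthesis and blocks autophagy when amino acids and growth signals are present. DDIT4 (also called REDD1) and the sestrins are stress-induced proteins that lower its activity. DDIT4 acts through the TSC complex and the sestrins through the GATOR complexes of the amino acid sensing pathway. When mTORC1 activity falls, the kinase ULK1 starts autophagosome formation, WIPI proteins mark the growing membrane, ATG8 proteins such as MAP1LC3B and GABARAPL1 are attached to it, and receptors such as SQSTM1 (p62) bring cargo to it.

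HEK293A is a flat-growing derivative of the HEK293 line, which came from embryonic kidney. The 6 groups were LATS1/2-DKO cells, labelled as lacking both kinases of the Hippo pathway, in 250 uM ZnCl2, in 50 uM CdCl2 or in water, and wild-type cells in the same 3 conditions, all for 4 h and with 3 libraries each. The labels do not say whether the knockout line is 1 clone, so an effect of the genotype and one of that line cannot be told apart. The study's design text speaks of biological replicates without naming separate cultures, and p-values therefore rest only on the spread of libraries within groups. For each gene that spread is 1 estimate shared by all 6 groups, so it need not match that of the groups compared. Levels are counts scaled by the TMM-adjusted library total (CPM), as mean ± SD over 3 libraries. Log2 fold changes are given ± an SE derived from the F statistic of edgeR's quasi-likelihood test. That SE can be too small for large changes at low counts.

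Total counts ran from 25478614 to 37148046 per library. LATS1 averaged 45.3 to 53.2 CPM in the 3 knockout groups, against 79.2 to 95.3 CPM in the 3 wild-type groups. LATS2 averaged 38.2, 25.0 and 18.6 CPM in knockout cells in zinc, cadmium and water, against 47.8, 41.9 and 16.4 CPM in wild type, so in water it was not lower in the knockout. Gene counts read transcript and not an edited coding sequence, so they check the genotype labels only in part. Among wild-type zinc libraries, replicate 3 was the most distant, since its chi-square over degrees of freedom was 4.74 and 4.82 against replicates 1 and 2, and 1.57 to 3.46 in all other pairs of a group. Of 6 markers of the HEK293 line, 4 averaged at least 1 CPM, and PAX2 and NEFM did not. Their summed level, most of it VIM, was 283 to 326 CPM in knockout and 383 to 535 CPM in wild-type libraries. The markers did not move together, since VIM and EYA1 were lower in the knockout, and NEFL, LHX1 and NEFM were higher. NEFL averaged 61.0, 80.0 and 103.7 CPM in knockout cells in zinc, cadmium and water, against 20.9, 24.1 and 39.5 CPM in wild type. The summed level of 7 fibroblast markers, 3 of them at or above 1 CPM on average and the fibroblast proteoglycan gene DCN with 5 reads in all 18 libraries, was 50.4 to 63.8 CPM in knockout and 8.93 to 13.1 CPM in wild-type libraries. Keratinocyte markers, with KRT1 at 0 and KRT10 as the 1 of 6 above 1 CPM, summed to 18.9 to 27.8 CPM, and blood markers, with HBB at 0 and 2 of 6 above 1 CPM, to 2.33 to 5.46 CPM. The part of these marker differences in the genotype results below was not tested. In bulk RNA, less transcript per cell and fewer cells with the transcript cannot be told apart.

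With zinc, 6 of the 9 other members were called higher and 1 lower in knockout cells, where 55.9% of all genes tested were called. In wild type 8 of all 10 were called higher and 2 lower, against 61.3% of all genes. With cadmium, 5 of the 9 were higher and 2 lower in knockout cells against 47.0% of all genes, and 5 of all 10 were higher and 3 lower in wild type against 61.7%. A call is an adjusted p under 0.05 in edgeR's quasi-likelihood test with Benjamini-Hochberg adjustment over all 19393 genes. The median log2 fold change of the 9 members was 0.79 with zinc in knockout cells and 1.31 in wild type, beside 0.00 and -0.01 over all genes. With cadmium it was 0.93 in knockout cells and 1.25 in wild type, beside -0.00 and -0.01 over all genes. In wild type, where DEPP1 fell with both metals, the median over all 10 members was lower, at 1.20 with zinc and 0.65 with cadmium. With such shares of all genes called, the counts of members called are no result about these genes, and the size and direction of each change are given below.

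**Figure D1:**
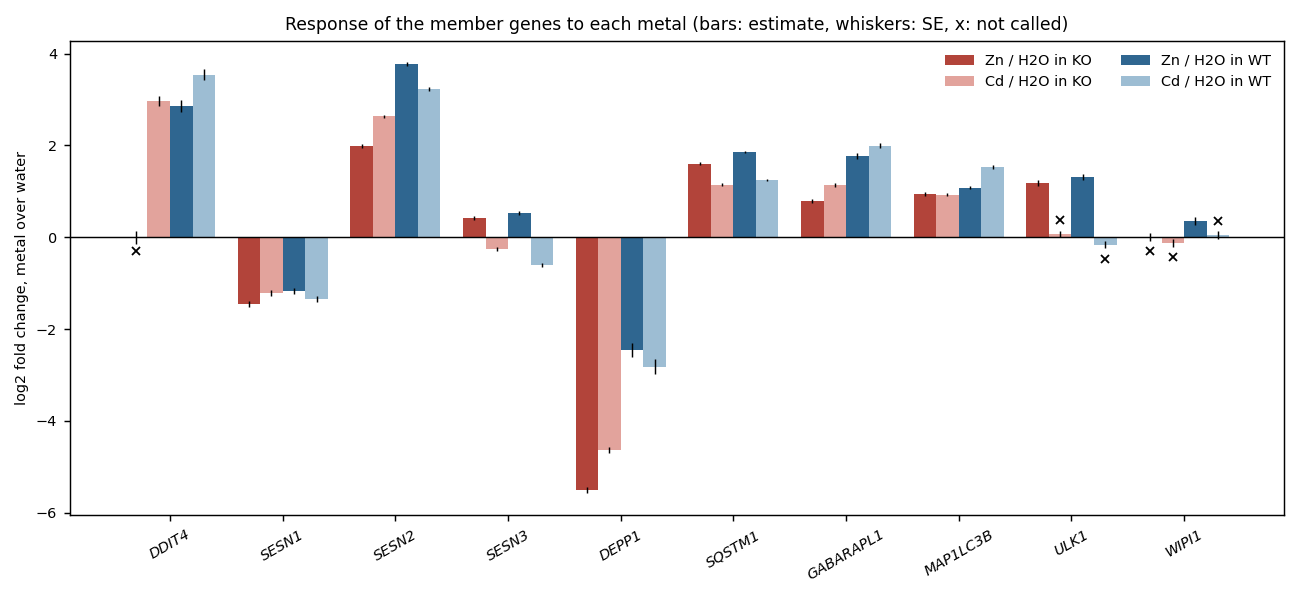
Log2 fold change of each member, metal over water, in knockout (KO, red shades) and wild-type (WT, blue shades) cells; bars are edgeR estimates, whiskers are ± 1 SE, and x marks a change not called. SESN2, SQSTM1, GABARAPL1 and MAP1LC3B are above 0 in all 4 contrasts, SESN1 and DEPP1 are below 0 in all 4, and DDIT4 has no bar for zinc in KO, where its estimate is -0.00.

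DDIT4 rose with cadmium in both genotypes and with zinc in wild type, while no change with zinc was detected in knockout cells. In knockout cells DDIT4 had 12.3, 13.2 and 11.5 CPM in zinc, 106, 90.3 and 91.8 CPM in cadmium, and 11.9, 13.2 and 12.0 CPM in water. Wild-type cells had 42.9, 38.9 and 42.1 CPM in zinc, 70.5, 63.0 and 65.2 CPM in cadmium, and 9.90, 3.90 and 4.06 CPM in water. The knockout zinc and water libraries overlap, the cadmium libraries are highest in both genotypes, and 1 of the 3 wild-type water libraries lies well above the other 2.

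With zinc, the log2 fold change of DDIT4 was -0.00 ± 0.13 in knockout cells (SE, 95% interval -0.27 to 0.26, edgeR adjusted p = 0.982), against 2.86 ± 0.13 in wild type (edgeR adjusted p = 5.4e-21). The difference between the genotypes, tested as an interaction, was -2.86 ± 0.19 (edgeR adjusted p = 1.89e-14). With cadmium DDIT4 was higher in both genotypes, by 2.96 ± 0.10 in knockout and 3.54 ± 0.12 in wild-type cells on the log2 scale. The difference of the cadmium responses was -0.57 ± 0.18 (edgeR adjusted p = 0.0143), a call that was lost with DESeq2 (adjusted p = 0.303) and without wild-type water replicate 2 or 3 (edgeR adjusted p = 0.149 and 0.179). In water DDIT4 was higher in the knockout by 1.11 ± 0.16 on the log2 scale (edgeR adjusted p = 8.55e-08). Leaving out the high wild-type water replicate 1 moved this to 1.63, the zinc response in wild type to 3.37, the cadmium response in wild type to 4.05 and the difference of the cadmium responses to -1.09.

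The count table used here counts reads without regard to strand and is not the sum of the strand columns. It held 30.7% as many DDIT4 reads as the column for the strand with most reads. GENCODE 29 places an antisense gene, DDIT4-AS1, over 847 of the 2058 exon bases of DDIT4. In the table without regard to strand, DDIT4-AS1 had 0 counts in all libraries. How the authors' counter treated reads on both genes was not tested. Counted on 1 strand, DDIT4 averaged 37.8 ± 1.08, 312 ± 14.9 and 37.99 ± 1.56 CPM in knockout cells in zinc, cadmium and water, against 128 ± 3.36, 209 ± 5.26 and 19.1 ± 12.3 CPM in wild type (SD, n = 3 each). The levels were thus about 3 times those of the table, while the zinc log2 fold changes were -0.01 in knockout and 2.80 in wild-type cells. On this count the difference of the cadmium responses was -0.47 and was not called (edgeR adjusted p = 0.066).

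**Figure D2:**
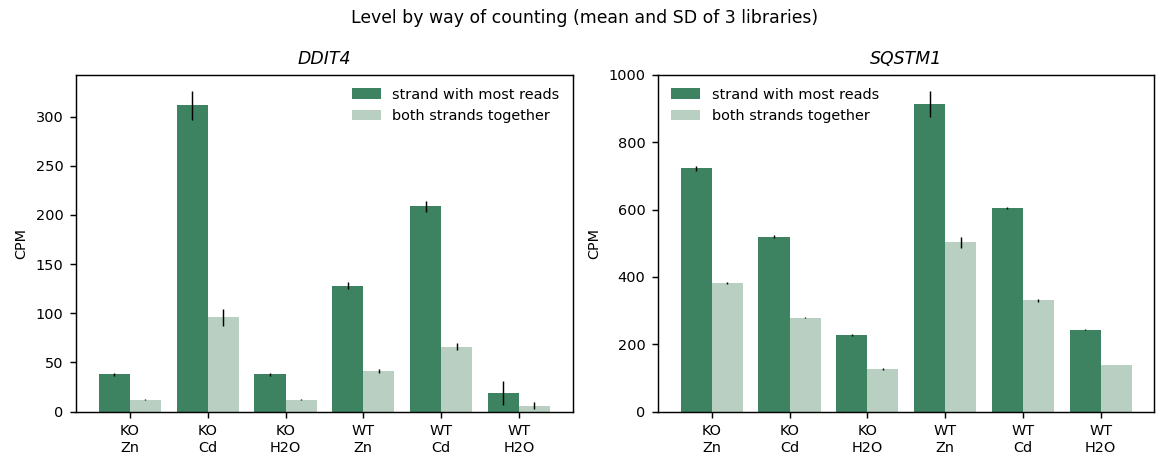
Mean level (CPM, linear axis, whiskers SD, n = 3) of DDIT4 and SQSTM1 in each group. Counts are of the strand with most reads (dark) or without regard to strand (pale, labelled both strands together). The pale bars are lower in every group while the order of the 6 groups is that of the dark bars.

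The DDIT4 promoter is shown because DDIT4 had the largest difference between cadmium and zinc of any member in knockout cells. It spans 250 bases before to 50 after the RefSeq transcription start, at chr10:72273674-72273973 on the plus strand of GRCh38.p14, with the gene itself at 72273920 to 72276036. Capitals mark TGCGCNC on either strand, a form of the metal response element read by the zinc-sensing factor MTF1.
DDIT4: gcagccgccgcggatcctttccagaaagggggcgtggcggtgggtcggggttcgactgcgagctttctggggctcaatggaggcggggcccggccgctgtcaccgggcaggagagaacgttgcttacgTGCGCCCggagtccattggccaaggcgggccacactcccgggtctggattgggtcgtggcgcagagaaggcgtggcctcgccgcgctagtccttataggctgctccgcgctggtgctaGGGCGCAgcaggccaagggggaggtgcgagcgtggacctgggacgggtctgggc
The motif is present at positions -122 and -4 from the start. Of all 35116 promoter windows of this length, 20.0% hold it at least once, so the match is a description of these letters and not a site of binding.

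The 3 sestrins differed in level and in direction. SESN2, the sestrin best known as a target of the stress factor ATF4, had 144, 152 and 139.8 CPM in zinc, 234, 225 and 220.3 CPM in cadmium, and 35.8, 37.0 and 36.7 CPM in water in knockout cells. In wild type SESN2 had 548, 514 and 534 CPM in zinc, 362, 365 and 364 CPM in cadmium, and 40.0, 39.4 and 37.6 CPM in water. No pair of neighbouring groups overlaps, and the knockout metal groups lie between the wild-type metal groups and the water groups.

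SESN2 had the largest rise of any member with zinc in wild type, 13.7-fold (log2 3.77 ± 0.04), against 3.97-fold in knockout cells (1.99 ± 0.04). The difference between genotypes was -1.78 ± 0.05 for zinc (edgeR adjusted p = 2.85e-25) and -0.59 ± 0.05 for cadmium (edgeR adjusted p = 2e-11). In water the genotypes differed by -0.09 ± 0.04 on the log2 scale (95% interval -0.17 to -0.01, edgeR adjusted p = 0.0555), which was called without wild-type water replicate 3 (-0.12, edgeR adjusted p = 0.0222). Counted on the strand with most reads, the water difference was also called (-0.09, edgeR adjusted p = 0.0457). The order of the metals also differed, with cadmium over zinc at 0.64 ± 0.03 in knockout and -0.55 ± 0.03 in wild-type cells. The SESN2 promoter, at chr1:28259268-28259567 on the plus strand of GRCh38.p14, is shown as that of the member with the largest rise with zinc, and it held none of the 9 motifs searched.
SESN2: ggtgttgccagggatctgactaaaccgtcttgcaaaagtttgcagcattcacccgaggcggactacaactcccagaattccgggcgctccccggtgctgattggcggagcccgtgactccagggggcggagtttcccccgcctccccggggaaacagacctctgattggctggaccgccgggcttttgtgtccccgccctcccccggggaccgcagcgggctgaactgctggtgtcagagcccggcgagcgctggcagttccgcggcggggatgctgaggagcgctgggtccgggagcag
The absence of capitals says only that those letters are not in this window.

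SESN1, a sestrin known as a FOXO target, moved the other way. In knockout cells it had 14.2, 14.5 and 14.7 CPM in zinc, 17.9, 17.6 and 15.7 CPM in cadmium, and 41.3, 40.2 and 37.6 CPM in water. Wild-type levels were 18.2, 19.4 and 22.4 CPM in zinc, 18.4, 17.3 and 17.6 CPM in cadmium, and 46.6, 44.2 and 44.5 CPM in water. Every metal library lies below every water library in both genotypes. SESN1 fell with zinc by 1.45 ± 0.06 in knockout and by 1.17 ± 0.06 in wild-type cells on the log2 scale, and with cadmium by 1.21 ± 0.06 in knockout and by 1.34 ± 0.06 in wild type. The difference for zinc, -0.29 ± 0.08 (edgeR adjusted p = 0.0104), was not called without wild-type zinc replicate 3 (-0.20, edgeR adjusted p = 0.0777).

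SESN3, a FOXO-regulated sestrin, was the one that split by metal in both genotypes. In knockout cells it had 94.1, 93.4 and 94.3 CPM in zinc, 57.0, 58.2 and 61.7 CPM in cadmium, and 72.1, 67.3 and 70.7 CPM in water. The wild-type cells had 99.4, 98.1 and 88.3 CPM in zinc, 44.1, 44.7 and 41.0 CPM in cadmium, and 66.0, 67.9 and 64.5 CPM in water. Zinc libraries lie above water and cadmium libraries below it, with no overlap within a genotype. The log2 fold change with zinc was 0.42 ± 0.04 in knockout and 0.53 ± 0.04 in wild-type cells, and with cadmium -0.25 ± 0.04 in knockout and -0.61 ± 0.04 in wild type. The cadmium response differed between genotypes by 0.36 ± 0.06 (edgeR adjusted p = 1.89e-05), the only called difference among the members that was above 0. For zinc the difference was not called with all libraries, but was without wild-type zinc replicate 3 (-0.15, edgeR adjusted p = 0.0363).

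Per kilobase of exon on the strand with most reads, SESN2 and SESN1 were close in water, at a ratio of 1.18 ± 0.06 in knockout and 1.11 ± 0.04 in wild-type cells (SD, n = 3). In zinc SESN2 was 13.4 ± 0.50 times as high as SESN1 in knockout cells and 35.5 ± 4.61 times in wild type, and in cadmium 17.6 ± 0.92 and 27.2 ± 1.31 times. On this measure SESN2 was thus the main sestrin in metal-treated cells of both genotypes, and the wild-type ratios in metal lie above the knockout ratios without overlap. The lengths are all annotated exon bases and not those of the transcripts expressed.

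**Figure D3:**
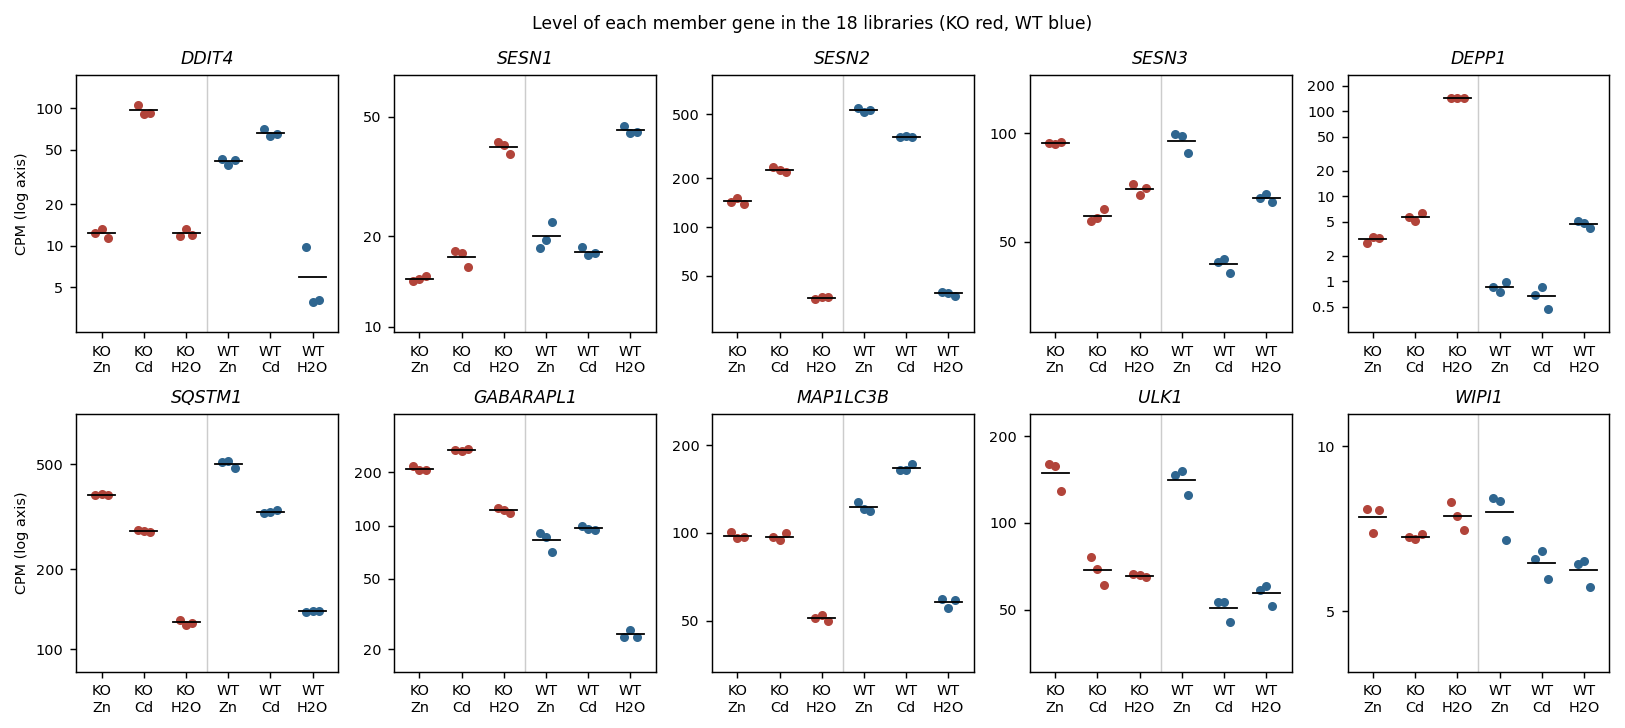
Level (CPM, log axis) of each member in the 18 libraries; points are libraries in replicate order from left to right within a group, lines are group means, KO is red and WT is blue. DEPP1 in KO water (141 to 145 CPM) stands far above its other 5 groups, and GABARAPL1 is higher in every KO library than in every WT library.

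DEPP1 is a FOXO-induced gene with a reported role in autophagy, and it was the most variable member, with a ratio of 213 between its highest and lowest group mean. In knockout cells it had 2.82, 3.33 and 3.25 CPM in zinc, 5.77, 5.11 and 6.37 CPM in cadmium, and 142, 145 and 141 CPM in water. Wild-type DEPP1 was at 0.847, 0.751 and 0.976 CPM in zinc, 0.689, 0.854 and 0.466 CPM in cadmium, and 5.14, 4.82 and 4.25 CPM in water. The knockout water libraries stand alone, and in both metals DEPP1 was still higher in every knockout library than in any wild-type library of the same metal.

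As a description, DEPP1 was 30.4-fold higher in knockout than in wild-type cells in water, 45.6-fold lower with zinc and 24.7-fold lower with cadmium than with water in the knockout. The differences of its metal responses between genotypes, -3.07 ± 0.23 for zinc and -1.81 ± 0.23 for cadmium, rest on the same knockout water libraries. In wild type DEPP1 fell with zinc by 2.44 ± 0.15 (edgeR adjusted p = 5.52e-17) and with cadmium by 2.82 ± 0.16 on the log2 scale (edgeR adjusted p = 3.39e-18). The wild-type libraries are not part of the known knockout fall. The members were still chosen with earlier results of these data known, so these p-values are no independent support. These wild-type metal levels rest on 15 to 30 reads per library, so the SEs of these falls can be too small. GENCODE 29 places exons of RASSF4 over 695 of the 2979 exon bases of DEPP1 on the other strand, and reads of the minor strand made up 0 to 14.8% of those at DEPP1.

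The DEPP1 promoter lies at chr10:44978760-44979059 on the minus strand of GRCh38.p14 and is shown because DEPP1 is the member that differs most between genotypes in water. Capitals mark 3 motif matches on either strand: GTAAACA, a FOXO site, at -180, GGAATG, the TEAD site read by the DNA partners of YAP and TAZ, at -175, which overlaps the FOXO match, and GAANNTTC, a pair of heat shock element units, at -11.
DEPP1: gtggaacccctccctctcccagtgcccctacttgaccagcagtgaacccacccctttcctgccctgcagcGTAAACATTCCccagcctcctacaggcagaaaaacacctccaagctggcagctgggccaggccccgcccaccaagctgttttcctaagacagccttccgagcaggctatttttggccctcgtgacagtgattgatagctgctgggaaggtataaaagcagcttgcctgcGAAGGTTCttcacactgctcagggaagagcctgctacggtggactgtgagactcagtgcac
Of all promoter windows 3.4% hold GTAAACA, 14.0% hold GGAATG and 6.8% hold GAANNTTC, and DEPP1 was the only one of the 10 members with the first or the last of these. Whether any of these letters is bound in these cells was not measured.

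Of the initiation genes, ULK1 rose with zinc in both genotypes, WIPI1 rose with zinc in wild type, and neither was called with cadmium. ULK1, the kinase that starts autophagosome formation, had 160.3, 157 and 129 CPM in zinc, 76.2, 69.2 and 61.1 CPM in cadmium, and 66.4, 65.9 and 64.8 CPM in water in knockout cells. In wild type it had 146, 151 and 125 CPM in zinc, 53.2, 53.3 and 45.5 CPM in cadmium, and 58.7, 60.5 and 51.6 CPM in water. The zinc libraries stand apart in both genotypes, while cadmium and water libraries overlap in both.

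ULK1 rose with zinc by 1.18 ± 0.07 in knockout and by 1.31 ± 0.07 in wild-type cells on the log2 scale, a difference of -0.13 ± 0.10 (95% interval -0.32 to 0.06, edgeR adjusted p = 0.379). With cadmium its log2 fold change was 0.07 ± 0.07 in knockout (edgeR adjusted p = 0.443) and -0.17 ± 0.08 in wild-type cells (edgeR adjusted p = 0.0568). The wild-type value was called without wild-type water replicate 3 (-0.24) or wild-type cadmium replicate 1 (-0.20) or 2 (-0.21), at edgeR adjusted p from 0.0122 to 0.0396. The wild-type fall was also called with library size alone (-0.29, edgeR adjusted p = 0.00113), without a filter on low counts (-0.20, edgeR adjusted p = 1.2e-05), with only the groups compared (-0.14, edgeR adjusted p = 0.0295) and with the replicate number as a block (-0.17, edgeR adjusted p = 0.000917). The difference of the cadmium responses, 0.24 ± 0.10 (edgeR adjusted p = 0.0882), was called without a filter (0.27, edgeR adjusted p = 0.000112), with the block (0.23, edgeR adjusted p = 0.00289), and without wild-type water replicate 3 (0.31, edgeR adjusted p = 0.0286) or knockout cadmium replicate 3 (0.32, edgeR adjusted p = 0.0174). In all 6 groups replicate 3 had the lowest ULK1 level, although the labels give a replicate number no shared day or batch. The small excess of ULK1 in knockout over wild-type water, 0.21 ± 0.07 (edgeR adjusted p = 0.013), was not called without wild-type water replicate 3 (0.13, edgeR adjusted p = 0.155) or with DESeq2 (adjusted p = 0.0605).

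ULK2, the closest relative of ULK1 and the gene with the largest genotype difference in water among the other initiation genes, had 28.9 ± 1.14, 25.0 ± 1.39 and 26.4 ± 2.01 CPM in knockout cells in zinc, cadmium and water. In wild type ULK2 had 0.683 ± 0.15, 0.515 ± 0.04 and 0.479 ± 0.25 CPM (SD, n = 3 each). The log2 difference in water was 5.71 ± 0.13 (edgeR adjusted p = 9.09e-31). Wild-type ULK2 was near the floor, so this SE can be too small. Every knockout group mean was thus above 25 CPM and every wild-type group mean below 1 CPM.

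WIPI1, which binds the lipid of the growing membrane, varied least, with a ratio of 1.28 between its highest and lowest group mean. It had 7.69, 6.93 and 7.63 CPM in zinc, 6.82, 6.77 and 6.92 CPM in cadmium, and 7.90, 7.46 and 7.04 CPM in water in knockout cells. In wild type it had 8.03, 7.96 and 6.74 CPM in zinc, 6.23, 6.42 and 5.72 CPM in cadmium, and 6.10, 6.17 and 5.53 CPM in water. In wild type the zinc libraries lie above the others and the cadmium and water libraries overlap, while in the knockout the zinc and water libraries overlap. WIPI1 was called higher with zinc in wild type, by 0.36 ± 0.09 on the log2 scale (edgeR adjusted p = 0.000882), and was not called in the other 3 metal contrasts, although cadmium in the knockout was called with library size alone (-0.23, edgeR adjusted p = 0.0222). The zinc responses differed by -0.36 ± 0.12 (edgeR adjusted p = 0.0324), a call lost with DESeq2 (adjusted p = 0.0519) and without a filter on low counts (edgeR adjusted p = 0.075). It was also lost without any 1 of 6 libraries (edgeR adjusted p 0.057 to 0.116), namely replicate 3 of wild-type water, 1 or 2 of wild-type zinc, 2 of knockout zinc and 1 or 2 of knockout water. A gene on the other strand, ARSG, shares 828 of the 3402 exon bases of WIPI1, so part of these counts cannot be assigned with certainty, and reads of the minor strand made up 9.45 to 34.1% of those at WIPI1. Counted on 1 strand, WIPI1 averaged 9.25, 8.33 and 9.11 CPM in knockout cells in zinc, cadmium and water, against 8.95, 6.34 and 6.13 CPM in wild type, and the ratio of highest to lowest was 1.51. On this count the zinc rise in wild type was 0.54 (edgeR adjusted p = 4.35e-07), the genotype difference in water 0.57 (edgeR adjusted p = 1.17e-07) and the difference of the zinc responses -0.52 (edgeR adjusted p = 0.000449).

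The ATG8 genes GABARAPL1 and MAP1LC3B rose with both metals in both genotypes, and their balance differed by genotype. GABARAPL1, a member of the GABARAP branch and a known FOXO target, had 218, 207 and 207 CPM in zinc, 267, 265 and 272 CPM in cadmium, and 126, 123 and 117 CPM in water in knockout cells. In wild type it had 91.2, 86.5 and 70.8 CPM in zinc, 100, 95.6 and 94.8 CPM in cadmium, and 23.6, 25.6 and 23.6 CPM in water. Every knockout library, water included, lies above every wild-type library.

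In water GABARAPL1 was 5.03-fold higher in knockout than in wild-type cells (log2 2.33 ± 0.06, edgeR adjusted p = 8.37e-30). With zinc it rose by 0.79 ± 0.05 in knockout and by 1.77 ± 0.06 in wild-type cells on the log2 scale, a difference of -0.98 ± 0.08 (edgeR adjusted p = 6.75e-13). With cadmium it rose by 1.14 ± 0.05 in knockout and by 2.00 ± 0.06 in wild type, a difference of -0.86 ± 0.08 (edgeR adjusted p = 1.62e-11). The GABARAPL1 promoter, at chr12:10212627-10212926 on the plus strand of GRCh38.p14, is printed for comparison with that of DEPP1, the other member much higher in the knockout in water, and it held none of the 9 motifs.
GABARAPL1: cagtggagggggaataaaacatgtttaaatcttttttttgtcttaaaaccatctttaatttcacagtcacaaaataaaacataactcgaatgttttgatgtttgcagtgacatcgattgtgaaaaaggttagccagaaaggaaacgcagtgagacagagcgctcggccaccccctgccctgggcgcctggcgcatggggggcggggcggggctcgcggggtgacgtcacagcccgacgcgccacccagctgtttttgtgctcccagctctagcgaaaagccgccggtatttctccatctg
The FOXO letters present in the DEPP1 window were thus not found in this one, which draws nothing about FOXO factors at other positions.

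MAP1LC3B, which encodes the LC3B protein used to mark autophagosomes, had 101, 95.9 and 96.5 CPM in zinc, 96.8, 94.6 and 99.8 CPM in cadmium, and 51.1, 52.3 and 49.7 CPM in water in knockout cells. In wild type it had 128, 121 and 119 CPM in zinc, 164, 165 and 172 CPM in cadmium, and 59.5, 55.2 and 59.0 CPM in water. In the knockout the metals overlap each other, while in wild type cadmium lies above zinc. MAP1LC3B rose with cadmium by 0.93 ± 0.04 in knockout and by 1.53 ± 0.04 in wild-type cells on the log2 scale, a difference of -0.60 ± 0.05 (edgeR adjusted p = 2.86e-11). For zinc the difference was -0.14 ± 0.05 (edgeR adjusted p = 0.047), which was not called without a filter on low counts (edgeR adjusted p = 0.0625) or with only the groups compared (edgeR adjusted p = 0.056). The call was also lost without any 1 of 7 libraries (edgeR adjusted p 0.0546 to 0.175), namely replicate 2 or 3 of knockout zinc, 1 or 2 of knockout water, 1 of wild-type zinc and 2 or 3 of wild-type water.

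Per kilobase of exon, GABARAPL1 was 2.84 ± 0.02, 3.61 ± 0.05 and 3.13 ± 0.07 times as high as MAP1LC3B in knockout cells in zinc, cadmium and water. In wild type the ratios were 0.898 ± 0.09, 0.760 ± 0.04 and 0.551 ± 0.05 (SD, n = 3 each). On this measure GABARAPL1 was thus the higher of the 2 in every knockout library, and MAP1LC3B in every wild-type library. The lengths are all annotated exon bases, 4086 for GABARAPL1 and 5313 for MAP1LC3B, and not those of the transcripts expressed. In wild-type zinc, where the ratio reached 0.952, the order can therefore depend on the length used.

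SQSTM1, the cargo receptor p62 and a known NRF2 target, rose with both metals in both genotypes and more with zinc. In knockout cells it had 381, 385 and 382 CPM in zinc, 281, 279 and 278 CPM in cadmium, and 129, 124 and 126 CPM in water. In wild type it had 508, 515 and 484 CPM in zinc, 326, 331 and 334 CPM in cadmium, and 138, 139 and 139.5 CPM in water. The 6 groups do not overlap. With zinc it rose by 1.60 ± 0.03 in knockout and by 1.86 ± 0.03 in wild-type cells on the log2 scale, a difference of -0.25 ± 0.04 (edgeR adjusted p = 4.3e-06). With cadmium it rose by 1.15 ± 0.03 in knockout and by 1.25 ± 0.03 in wild type, and the difference of -0.10 ± 0.04 (edgeR adjusted p = 0.0467) was lost without any 1 of 10 of the 12 libraries it uses (edgeR adjusted p 0.0563 to 0.135), all but knockout water replicate 2 and wild-type cadmium replicate 1. That call was also lost with library size alone (edgeR adjusted p = 0.0564) and without a filter on low counts (-0.08, edgeR adjusted p = 0.37). The table held 52.8% as many SQSTM1 reads as the strand with most reads, and GENCODE 29 places MRNIP over 1582 and MGAT4B over 105 of its 7654 exon bases on the other strand. Counted on 1 strand SQSTM1 averaged 722, 520 and 227 CPM in knockout cells in zinc, cadmium and water, against 915, 606 and 244 CPM in wild type.

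Besides DEPP1, the genotypes differed in water for 7 of 9 members, 4 higher and 3 lower in the knockout, where 62.9% of all genes were called. The median over the 9 was 0.08 on the log2 scale, beside -0.02 over all genes. The largest of these was that of GABARAPL1, followed by DDIT4. The other called ones were under 0.4 in size in the table without regard to strand. They were WIPI1 at 0.33 ± 0.09 (0.57 on 1 strand), ULK1 at 0.21 ± 0.07, SESN1 at -0.19 ± 0.05, MAP1LC3B at -0.18 ± 0.04 and SQSTM1 at -0.14 ± 0.03. SESN2 and SESN3 were not called, with log2 differences of -0.09 ± 0.04 and 0.08 ± 0.04, although alternatives called them, for SESN2 as given above. SESN3 was called without knockout water replicate 2 (0.11, edgeR adjusted p = 0.044) and with library size alone (0.14, edgeR adjusted p = 0.00587). It was also called with at least 5 CPM in 3 libraries (0.10, edgeR adjusted p = 0.0306) and with only the groups compared (0.11, edgeR adjusted p = 0.00779).

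The zinc response differed between genotypes for 7 of the 9 members other than DEPP1, all 7 lower in the knockout. Of all genes 24.6% were called, 2729 higher and 2038 lower. For SESN1 lower means a larger fall in the knockout (-1.45 against -1.17), and the others rose less or showed no detected rise there. The cadmium response differed for 6 of the 9, with 5 lower and 1 higher in the knockout. Here 28.1% of all genes were called, 2720 higher and 2729 lower. The median difference over the 9 was -0.29 for zinc and -0.17 for cadmium, beside 0.02 and 0.01 over all genes. Both differences rest on the same water libraries, so they are not independent of each other. Of the 7 called for zinc, MAP1LC3B, WIPI1 and SESN1 lost the call when 1 library was left out. Of the 6 called for cadmium, DDIT4 and SQSTM1 did.

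**Figure D4:**
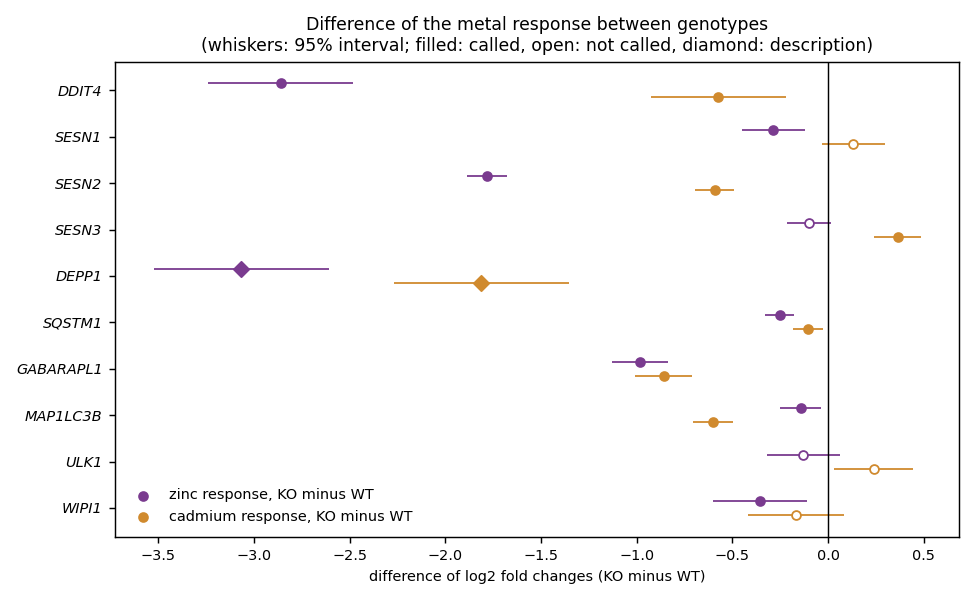
Difference of the log2 fold change over water between genotypes (KO minus WT) for each member, for zinc (purple) and cadmium (orange); whiskers are 95% intervals, filled circles were called, open circles were not, and diamonds mark DEPP1, given as a description. DDIT4, SESN2 and DEPP1 lie furthest below 0 for zinc, at -2.86, -1.78 and -3.07, and SESN3 for cadmium is the filled circle above 0.

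Cadmium at 50 uM and zinc at 250 uM differ in dose, so a contrast between them compares these exposures. Cadmium over zinc, 7 of the 9 members other than DEPP1 were called in knockout cells, 4 higher and 3 lower, where 48.2% of all genes were called. In wild type 9 of all 10 were called, 3 higher and 6 lower, where 52.3% of all genes were called. DDIT4 was 7.82-fold higher in cadmium than in zinc in knockout cells and 1.60-fold higher in wild type. ULK1 was lower in cadmium by 1.11 ± 0.07 in knockout and by 1.48 ± 0.07 in wild-type cells on the log2 scale, and SESN3 by 0.67 ± 0.04 and 1.14 ± 0.04. SESN2 was higher in cadmium in knockout cells and higher in zinc in wild type, as given above.

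Around the members, 139 of 145 other genes of the pathway, in 8 lists, were tested. With zinc 63.3% of them were called in knockout cells and 75.5% in wild type, and with cadmium 62.6% and 75.5%, in either direction and on a background given above. Of 12 genes of the mTOR complexes and TSC, zinc raised 4 and lowered 3 in knockout cells and raised 5 and lowered 4 in wild type, and cadmium raised 6 and lowered 5 in knockout cells and raised 5 and lowered 6 in wild type. TSC1, a subunit of the complex through which DDIT4 acts, rose with zinc by 0.82 ± 0.04 in knockout and by 0.66 ± 0.04 in wild-type cells on the log2 scale. RHEB, the small GTPase that activates mTORC1, rose with cadmium by 0.39 ± 0.04 in knockout and by 0.72 ± 0.04 in wild type.

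Of 26 genes of amino acid sensing at the lysosome, zinc raised 7 and lowered 10 in knockout cells and raised 10 and lowered 12 in wild type, and cadmium raised 5 and lowered 11 in knockout cells and raised 7 and lowered 10 in wild type. FNIP1, a folliculin partner, rose with zinc by 1.49 ± 0.04 in knockout and by 1.94 ± 0.04 in wild-type cells, and RRAGA, a Rag GTPase, fell by 0.99 ± 0.05 and by 1.31 ± 0.06 on the log2 scale. Of 20 genes of autophagy initiation, zinc raised 10 and lowered 5 in both genotypes, and cadmium raised 4 and lowered 8 in knockout cells and raised 8 and lowered 7 in wild type. ATG14, a subunit of the lipid kinase that follows ULK1, rose with zinc by 0.78 ± 0.05 in knockout and by 1.17 ± 0.05 in wild-type cells, and with cadmium by 0.93 ± 0.05 and by 1.15 ± 0.05 on the log2 scale.

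Of 14 other ATG8 and conjugation genes, zinc raised 3 and lowered 5 in knockout cells and raised 3 and lowered 3 in wild type, and cadmium raised 2 and lowered 2 in knockout cells and raised 6 and lowered 2 in wild type. Among those at 5 CPM or more, the largest changes were in the knockout, at 0.66 ± 0.04 for ATG12 with cadmium and -0.59 ± 0.05 for the protease ATG4C with zinc on the log2 scale. Of 18 other cargo receptors, zinc raised 3 and lowered 4 in knockout cells and raised 5 and lowered 9 in wild type, and cadmium raised 2 and lowered 7 in knockout cells and raised 3 and lowered 11 in wild type. Among those at 5 CPM or more, the largest changes were those of SEC62, a receptor for the endoplasmic reticulum, which fell with zinc by 0.61 ± 0.03 in knockout and by 0.67 ± 0.03 in wild-type cells on the log2 scale. Of 24 genes of the TFEB family and lysosome, zinc raised 11 and lowered 3 in knockout cells and raised 11 and lowered 5 in wild type, and cadmium raised 13 and lowered 5 in knockout cells and raised 12 and lowered 8 in wild type. TFE3, a TFEB relative that drives lysosomal genes, rose with zinc by 1.07 ± 0.04 in knockout and by 1.30 ± 0.04 in wild-type cells, and with cadmium by 0.79 ± 0.04 and by 1.06 ± 0.04 on the log2 scale.

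**Figure D5:**
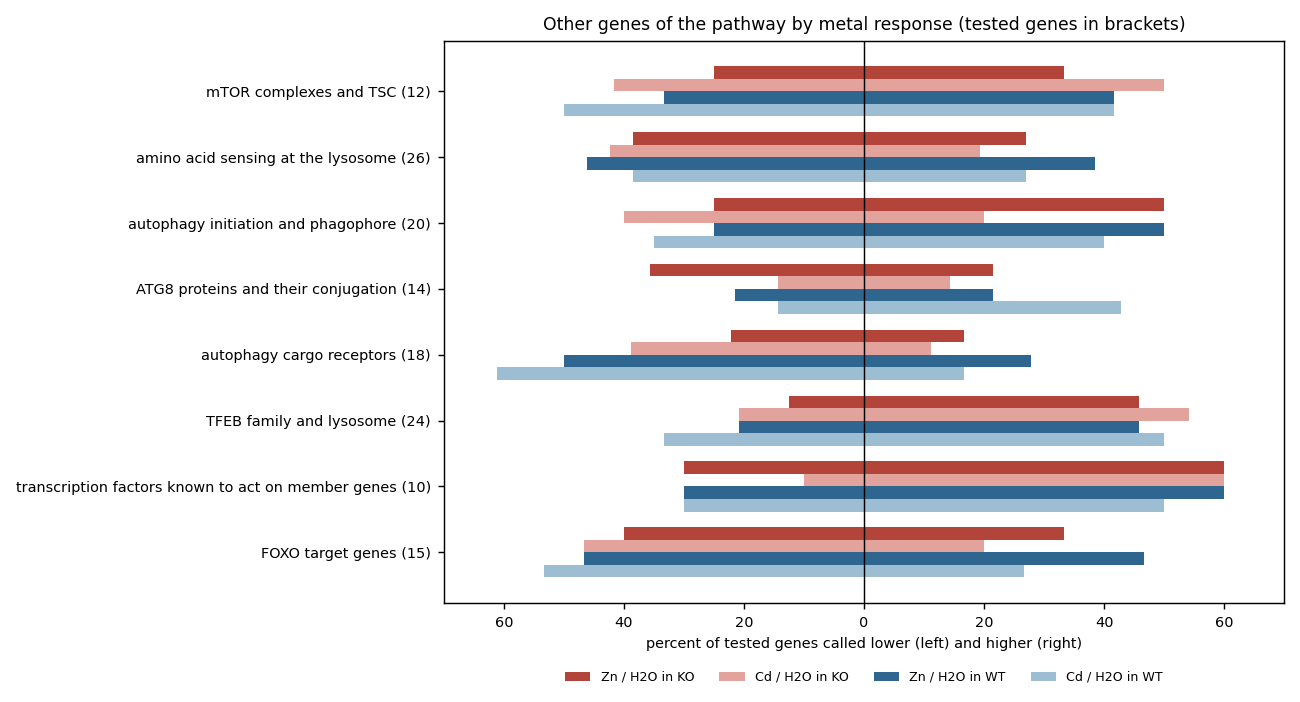
Percent of the tested genes of each list called lower (left of 0) and higher (right of 0) with each metal over water in KO (red shades) and WT (blue shades) cells, the number tested in brackets. All lists hold genes that moved in both directions, and cargo receptors in WT cadmium have the longest bar to the left (11 of 18 genes).

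Of 15 FOXO target genes, zinc raised 5 and lowered 6 in knockout cells and raised 7 and lowered 7 in wild type, and cadmium raised 3 and lowered 7 in knockout cells and raised 4 and lowered 8 in wild type. In water 11 of the 15 were higher and 3 lower in the knockout, where 62.9% of all genes were called, 5973 higher and 6227 lower. CITED2, a transcriptional coregulator, had 78.2, 102 and 162 CPM in knockout cells in zinc, cadmium and water, against 23.3, 20.7 and 37.8 CPM in wild type. CCNG2, a cell cycle inhibitor, had 26.4, 23.8 and 28.1 CPM in knockout cells, against 8.74, 6.34 and 6.41 CPM in wild type. IRS2, an insulin receptor substrate, went the other way and was lower in the knockout in water by 1.21 ± 0.04 on the log2 scale.

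Among 10 transcription factors known to act on member genes, zinc raised 6 and lowered 3 in both genotypes, and cadmium raised 6 and lowered 1 in knockout cells and raised 5 and lowered 3 in wild type. DDIT3 (CHOP), a stress factor downstream of ATF4, had 79.2, 80.5 and 8.12 CPM in knockout cells in zinc, cadmium and water, against 239, 198 and 12.2 CPM in wild type. CEBPB, its partner, had 25.95, 64.2 and 11.5 CPM in knockout cells, against 48.0, 78.4 and 9.55 CPM in wild type. Their zinc responses were smaller in the knockout by 1.02 ± 0.10 and 1.16 ± 0.10 on the log2 scale (edgeR adjusted p = 5.6e-10 and 2.19e-11).

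ATF4 itself had 500.2, 476 and 304 CPM in knockout cells in zinc, cadmium and water, against 568, 406 and 391 CPM in wild type, and its control is known to be largely at translation. Its zinc response was larger in the knockout by 0.18 ± 0.04 and its cadmium response by 0.59 ± 0.04, opposite in direction to those of SESN2. NFE2L2 (NRF2), a known regulator of SQSTM1, had 106.5, 104 and 49.5 CPM in knockout cells, against 136, 174 and 53.5 CPM in wild type. FOXO4 was higher in the knockout in water by 0.99 ± 0.07, FOXO1 by 0.24 ± 0.04, while FOXO3 was lower by 0.12 ± 0.04 and FOXO6 was not called (-0.19 ± 0.14). HIF1A, which acts on DDIT4 in hypoxia, was not called with cadmium in knockout cells (-0.02 ± 0.04) and fell by 0.16 ± 0.04 in wild type. With zinc the log2 fold change of HIF1A was -0.63 ± 0.04 in knockout and -0.44 ± 0.04 in wild-type cells. The difference of these HIF1A responses was -0.19 ± 0.06 (edgeR adjusted p = 0.018). Its activity is known to be set mainly at the protein, and its part in the DDIT4 changes was not tested.

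Over the 18 libraries, log2 levels of the members paired most closely for MAP1LC3B with SESN2 (Pearson r = 0.93) and SQSTM1 with SESN2 (r = 0.93), and SESN1 ran opposite to SQSTM1 (r = -0.87). These are 45 correlations over libraries of 6 groups and are given as a description. Among 11324 genes, the pattern of SESN2 was most like those of ASNS (r = 0.99), DDIT3 (0.99) and ATG14 (0.99), that of MAP1LC3B like NFE2L2 (0.99), BTG3 (0.99) and KLF6 (0.99), and that of DEPP1 like FGFR2 (0.97) and TIGAR (0.96). ASNS, the asparagine synthetase gene, had 7.04, 11.9 and 1.73 CPM in knockout cells in zinc, cadmium and water, against 31.0, 18.7 and 2.42 CPM in wild type. The closest genes were ABHD4 (r = 0.94) for DDIT4, ZFP62 (0.98) for SESN1, JAG1 (0.99) for SESN3, ABHD3 (0.99) for SQSTM1, BDNF (0.99) for GABARAPL1, HGS (0.99) for ULK1 and GREB1L (0.92) for WIPI1.

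The 9 motifs were searched on both strands of the RefSeq windows, 14 in all for the 10 members since SESN1 and SQSTM1 have 3 each. TGATGNAA, part of the ATF4 composite site, is in 3.6% of all windows, CACGTG, the E-box of TFEB targets, in 7.3%, TGANTCA, the AP-1 site, in 7.7%, and TGCACNC, another metal response element form, in 12.1%, and no member window held any of these 4. TGACNNNGC, the NRF2 element, is in 13.3% of all windows and was in those of SESN1 and MAP1LC3B but not SQSTM1. TGCGCNC was in windows of DDIT4, SESN1, SQSTM1 and ULK1, and GGAATG in those of SESN1, DEPP1 and ULK1. SESN1, which fell with zinc, and ULK1, which rose, thus held both of these motifs, SESN1 in separate windows and ULK1 in its only window.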

How the data were processed

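Polyadenylated RNA of 18 libraries was made with a stranded TruSeq kit, per the labels' protocols. The authors deposited raw read counts per Ensembl gene, as a table of the whole series without regard to strand and as files per library that also give each strand. The submitters' processing notes name STAR and the builds hg38 and GRCh38.p13. Which counter and annotation were used is not given in the sources used here. Total counts per library ran from 25478614 to 37148046, and the median biological coefficient of variation was 3.93%. Libraries were grouped by title, and all pairs of a group differed by more than sampling noise.

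Symbols and exons come from GENCODE 29, in which 58216 of 58336 gene IDs were found, and promoters from RefSeq (GRCh38.p14), with all 10 members matched. The 19393 genes that passed filterByExpr (minimum count 10) were fitted with TMM scaling and edgeR's quasi-likelihood test on 6 group means, adjusted by Benjamini-Hochberg within each of 9 comparisons, with a threshold of 0.05. The SE of a log2 fold change is its absolute value divided by the square root of the F statistic of the test. It is not a standard error from the fit and can be too small for large changes at low counts. The 95% intervals are normal intervals from this SE. The script was tested on simulated data. R 4.3.3, edgeR 4.0.16, limma 3.58.1, DESeq2 1.42.0, Python 3.11.15, pandas 2.3.3, numpy 2.4.6 and matplotlib 3.10.9 were used.

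The members, the 8 lists and the motifs were chosen with earlier results of these data known. All members were named. From each list, at most the 3 genes with the largest absolute log2 fold change in a comparison were eligible, at an adjusted p under 0.05 and a mean of at least 5 CPM, and the transcription factor list was drawn on where it bears on a member. Likeness is the highest Pearson r of log2 CPM (prior count 0.5) over 18 libraries. ULK2 was named by this rule. Alternatives were DESeq2, scaling by library size alone, other filters, counts of 1 strand, only the groups compared, a replicate block and leaving out each library in turn. No protein sequences were used here. Among the genes these rules name, 2 are not reported here.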

Additional observations from a re-analysis of the deposited data

Results flagged for a closer look

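The metal response differed between knockout and wild-type cells in 13 tests of members other than DEPP1, each as an interaction contrast in edgeR's quasi-likelihood test, adjusted over all genes. For zinc, the difference in log2 fold change, knockout minus wild type, was -2.86 for DDIT4, -1.78 for SESN2, -0.98 for GABARAPL1, -0.36 for WIPI1, -0.29 for SESN1, -0.25 for SQSTM1 and -0.14 for MAP1LC3B. For cadmium it was -0.86 for GABARAPL1, -0.60 for MAP1LC3B, -0.59 for SESN2, -0.57 for DDIT4, -0.10 for SQSTM1 and 0.36 for SESN3. For DEPP1 the differences were -3.07 for zinc and -1.81 for cadmium, given as a description, since they rest on the knockout libraries by which it was chosen. All of these values share the water libraries of both genotypes. With 3 libraries per group, single libraries were not tested as outliers.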

How the results depend on the processing

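The numbers of members and of pathway genes called stayed within 1.5 times their value in every alternative run. Over all alternatives, single-gene values changed sign 17 times, in each case for a change that was not called. With library size alone, WIPI1 with cadmium in wild type was -0.0713 and ULK1 with cadmium in the knockout -0.0415 on the log2 scale. Zinc in the knockout gave 0.0233 for DDIT4 and 0.027 for WIPI1 with at least 5 CPM in 3 libraries, 0.0099 and 0.0149 with only the groups compared, and 0.0225 for WIPI1 on 1 strand. Without 1 library, WIPI1 with cadmium in wild type ran from -0.0066 to 0.0989, DDIT4 with zinc in the knockout from -0.0466 to 0.0477, WIPI1 with zinc in the knockout from -0.0483 to 0.0501, ULK1 with cadmium in the knockout from -0.012 to 0.1487 and MAP1LC3B for cadmium over zinc in the knockout from -0.0329 to 0.0067. A call was lost 39 times and gained 19 times in the same direction, in each case for 1 result under 1 alternative, and the cause was not tested.

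Library size alone in place of TMM moved the median of all genes to -0.13 for cadmium in wild type and -0.12 in the knockout. It moved the share of called genes that were higher to 37.2% for zinc in the knockout (50.4% with TMM), to 28.8% for cadmium in the knockout (49.3%) and to 35.5% for cadmium in wild type (48.6%). The labels tie replicate numbers to no shared culture or day. Of 45 same-numbered pairs across groups, 16 had deviations correlated above 0.1, and all 45 ran from -0.06 to 0.33. All 3 numbers were above 0.1 in 2 of 15 pairs of groups, wild-type cadmium with wild-type zinc (0.15 to 0.178) and knockout with wild-type cadmium (0.111 to 0.325). Of these, cadmium over zinc in wild type is a comparison made here, and there 9 members were called with and without the replicate block. Over all comparisons the block changed the calls on ULK1 with cadmium, in wild type (-0.17) and in the difference between genotypes (0.23), and no other call on a member. Low counts limit DEPP1, with 15 to 30 reads per wild-type metal library, and WIPI1, with 159 to 280 reads per library.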

Other observations

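Other genes of the autophagy and lysosome lists also differed by genotype in water (edgeR, all called). CTSB, a lysosomal protease, was higher in the knockout by 1.43 ± 0.04, MITF, a TFEB relative, by 1.02 ± 0.09, and the receptors BNIP3L and NBR1 by 0.88 ± 0.06 and 0.62 ± 0.03 on the log2 scale. PIK3C3, the lipid kinase of autophagy initiation, was lower by 1.04 ± 0.05, as were RRAGD by 1.04 ± 0.05 and FNIP2 by 0.94 ± 0.05, which act beside folliculin at the lysosome. KLF15, a FOXO target, had 2.80, 3.92 and 4.83 CPM in knockout cells in zinc, cadmium and water, against 13.1, 12.4 and 9.59 CPM in wild type, with a difference of the zinc responses of -1.23 ± 0.17 (edgeR adjusted p = 5.24e-07). TXNIP, another, had 6.67, 6.04 and 14.3 CPM in knockout cells, against 2.51, 2.99 and 11.2 CPM in wild type, with a difference of 1.07 ± 0.14 (edgeR adjusted p = 1.85e-07).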
